A study of Rattus norvegicus with 6 samples.

Results

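Nlrp3 and Ptk2b are 2 protein-coding genes measured in rat lung, by probes for their linear transcripts, on an array built for circular RNA (circRNA, formed when exon ends are joined back to back). They were read from 2 of the array's 62 probes for linear transcripts, out of 14207 circRNA and linear probes in all. The Nlrp3 probe was A_44_P281733 (accession NM_001191642 in the scanner files) and the Ptk2b probe A_44_P482346 (NM_017318). Both accessions matched the named gene in the RefSeq table of genes on the rat assembly GRCr8. Each probe was printed as 10 spots per array, so that each array gave 10 readings of one RNA extract. The genes were chosen from the difference between the groups described here, which is therefore given as a description and without a test.

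Lung RNA of adult male rats was compared between 3 normal rats and 3 rats with acute respiratory distress syndrome (ARDS). The series title gives lipopolysaccharide, the endotoxin of Gram-negative bacteria, as the inducer, and its dose, the time of sampling and the rat strain were not given in the sources used here. The rats are numbered separately in the labels, and each array was taken as 1 rat. Before labelling, total RNA of both groups was digested with RNase R, which degrades linear RNA and spares most circRNA, and the rest was amplified by random priming and labelled with the dye Cy3. The values are therefore levels that remained after that digestion, and linear RNA that escaped it cannot be told apart from circRNA that holds the same exon. In whole lung, fewer cells of a type and less RNA per cell cannot be told apart either. None of the 38 marker genes looked for, of neutrophils, macrophages, lymphocytes, lung epithelium, endothelium, fibroblasts, platelets and red cells, was matched to a linear probe (0 of 38), so the cell make-up of the samples and the lung label were not checked.

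NLRP3 is a cytosolic sensor of innate immunity. After priming through Toll-like receptors and NF-kB, which raises its transcription, it assembles with the adaptor ASC (the product of Pycard) and caspase-1 into an inflammasome that matures interleukin-1β and interleukin-18. In the lung it is best known from macrophages exposed to microbial products. Ptk2b encodes PYK2, a tyrosine kinase of the focal adhesion kinase family that is activated by calcium and signals downstream of integrins and chemokine receptors in leukocytes. PYK2 is no structural part of the inflammasome, but it has been described as a kinase that phosphorylates ASC.

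The scanner files hold no probe sequences. For context on the gene that priming is known to induce, the 250 bases upstream of the RefSeq transcription start of Nlrp3 are shown, at chr10:44827848-44828097 on the plus strand of GRCr8. Capitals mark a match to GAGGAAG, a sequence of the kind bound by PU.1, the transcription factor of myeloid cells.

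Nlrp3 upstream region: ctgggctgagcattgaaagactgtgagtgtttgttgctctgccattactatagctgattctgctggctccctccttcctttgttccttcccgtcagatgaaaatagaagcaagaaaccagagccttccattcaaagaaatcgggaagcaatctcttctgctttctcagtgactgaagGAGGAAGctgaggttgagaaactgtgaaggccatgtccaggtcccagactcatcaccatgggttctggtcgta

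The match began 73 bases before the start, on the gene's own strand, and 10.2% of the 33469 RefSeq promoters, over the same 250 bases and on both strands, held one. The consensus NF-kB motif (in 6.33% of promoters), the AP-1 motif TGANTCA (6.34%) and the TATA box TATAAA (12.9%) had no match (0) in this window. The 250 bases were 48.0% G or C. A match is a match of letters only, and binding was not measured. Of the 2 genes, 1 was matched in the promoter table, and the upstream region of Ptk2b is not shown.

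Nlrp3 was dim but measurable on all 6 arrays. Its processed signal, the scanner's background-subtracted brightness, was 12.6 ± 1.79 (SD over 10 spots) in normal replicate 1, 7.55 ± 1.22 (10 spots) in normal replicate 2 and 6.35 ± 1.08 (9 spots) in normal replicate 3. In ARDS lung it was 14.1 ± 1.68 (10 spots) in replicate 1, 24.3 ± 2.13 (9 spots) in replicate 2 and 10.5 ± 1.72 (10 spots) in replicate 3. The groups overlapped on this scale, since ARDS replicate 3 lay below normal replicate 1. ARDS replicate 2 stood highest, and normal replicates 2 and 3 lowest.

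Ptk2b did not overlap between the groups on the same scale. By unscaled log2 signal, every ARDS array lay above every normal array in 0.722% of the 13296 circRNA and linear probes tested. Nothing is read from that share, since Ptk2b was chosen on this contrast. The processed signal of Ptk2b was 20.2 ± 0.645 (SD over 9 spots) in normal replicate 1, 6.76 ± 0.952 (10 spots) in normal replicate 2 and 9.23 ± 1.18 (10 spots) in normal replicate 3. It was 24.2 ± 1.4, 26.1 ± 1.79 and 78.8 ± 7.05 (10 spots each) in ARDS replicates 1, 2 and 3. ARDS replicate 3 was far above the other arrays, whereas ARDS replicate 1 lay only a little above normal replicate 1. The brightest Ptk2b spot kept in normal lung (21.37, replicate 1) was almost level with the dimmest in ARDS lung (21.38, replicate 1). The mean scanner error per spot on these arrays was 2.25 and 2.61, so their spots were not clearly apart. For Nlrp3 15 spots of normal lung were brighter than the dimmest of ARDS lung. Spots are repeated readings of the same extract and do not add rats.

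**Figure D1:**
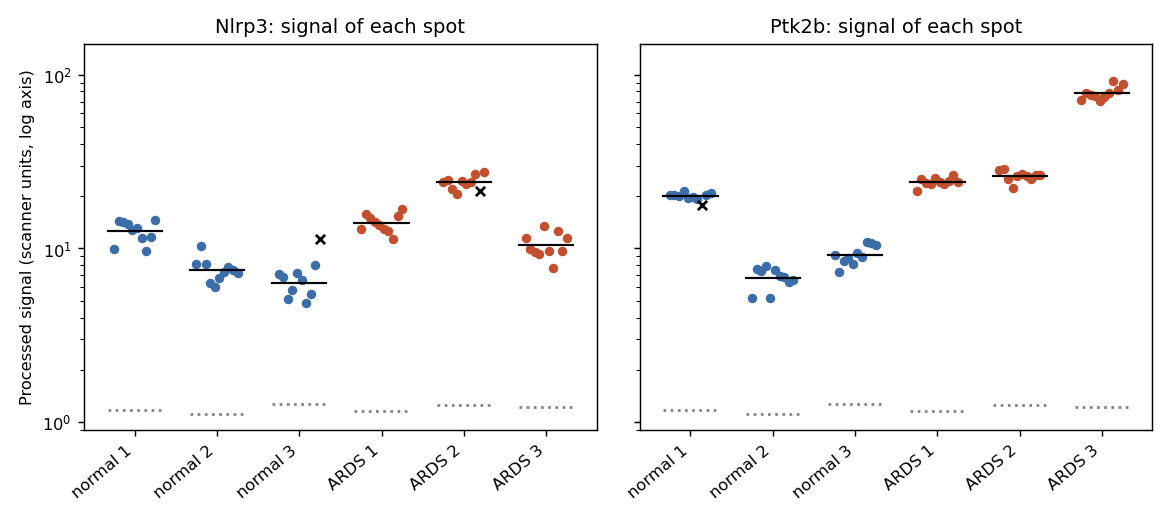
Processed signal of each of the 10 spots of Nlrp3 (left) and Ptk2b (right) on the 6 arrays, in scanner units on a log axis; blue is normal and red is ARDS lung, black lines are array means, crosses are spots marked as outliers and left out, and dotted lines are the brightest negative control spot of each array. ARDS replicate 3 has a mean of 78.8 for Ptk2b but 10.5 for Nlrp3, below the 12.6 of normal replicate 1.

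The spots of 1 array varied less than the rats of 1 group. The coefficient of variation between spots ran from 8.77% to 17% for Nlrp3 and from 3.2% to 14.1% for Ptk2b. On the log2 scale the median SD between spots of an array was 0.22 for Nlrp3 and 0.11 for Ptk2b, against an SD between rats (n = 3 each) of 0.51 in normal and 0.62 in ARDS lung for Nlrp3 and of 0.82 and 0.95 for Ptk2b. The median standard error of an array mean over its spots was 0.069 for Nlrp3 and 0.036 for Ptk2b. The 10 positions of each probe lay in rows 6 to 168 of the array for Nlrp3, many of them in rows 145 to 168, and in rows 19 to 179 for Ptk2b. The mean deviation of a position from its array's mean lay between -0.18 and 0.16 for Nlrp3 and between -0.11 and 0.1 for Ptk2b. The Nlrp3 position at -0.18 was below its array's mean on all 6 arrays. The scanner flagged 59 of the 60 Nlrp3 spots and 60 of the 60 Ptk2b spots as well above background. It marked 2 Nlrp3 spots and 1 Ptk2b spot as outliers, which were left out.

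Both probes stood clear of the array's empty controls. The 75 to 77 negative control spots per array, which match no rat transcript, had mean processed signals between 1.02 and 1.06, and the brightest of them reached 1.27. The dimmest spot kept was at 4.87 for Nlrp3 and 5.16 for Ptk2b. The array means were 6.19 to 22.9 times the mean negative control for Nlrp3 and 6.64 to 76.1 times for Ptk2b. The controls lie at the floor of the processed signal, so these ratios restate the genes' own signal. On raw values the Nlrp3 spots exceeded their local background by 9.06 to 29.3 (array means). The raw median brightness of the spots, before any subtraction, was 27.3 to 45.3 for Nlrp3, on a local background of 16 to 24.8. The highest local background, 24.8, was that of ARDS replicate 3. There the raw Nlrp3 spots exceeded their local background by 9.15, which was less than in normal replicates 1 (16.5) and 2 (9.9). Negative control spots on that array had a mean difference from their local background of -2.49, while on the other 5 arrays they lay 1.64 to 3.84 above it.

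How large the difference between the groups was depended on what the signals were set against, because the arrays differed in brightness. The 75th percentile of the log2 circRNA signal was 7.59, 7.22 and 7.39 in normal replicates 1 to 3 and 5.99, 6.66 and 5.82 in ARDS replicates 1 to 3. Without scaling, normal lung had a log2 Nlrp3 signal of 3.06 ± 0.51 (SD, n = 3) and ARDS lung one of 3.92 ± 0.62 (SD, n = 3). The difference was 0.86 (limma SE 0.42), or 1.82-fold. For Ptk2b these levels were 3.42 ± 0.82 and 5.2 ± 0.95 (SD, n = 3 each), a difference of 1.77 (limma SE 0.55), or 3.42-fold. Over all circRNAs tested the median unscaled difference went the other way, at -1.19, and over the other 49 linear probes tested it was -0.7.

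After subtraction of each array's 75th percentile, neither gene overlapped between the groups. The scaled log2 level of Nlrp3 was -3.95, -4.32 and -4.74 in normal replicates 1 to 3 and -2.18, -2.07 and -2.44 in ARDS replicates 1 to 3. The difference was 2.11 (limma SE 0.27), or 4.3-fold. The scaled log2 level of Ptk2b was -3.25, -4.48 and -4.19 in normal and -1.4, -1.96 and 0.48 in ARDS replicates 1 to 3, a difference of 3.02 (limma SE 0.63), or 8.1-fold. For scale, every ARDS array lay above every normal array in 23.2% of the 13296 circRNA and linear probes tested, and in 0.722% of them without scaling. Nothing is read from these shares about the genes, which were chosen on this contrast.

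The scaling moved the empty controls by more than the unscaled difference of Nlrp3. Normal arrays had a mean log2 signal of the negative controls of 0.029 ± 0.0046 and ARDS arrays one of 0.05 ± 0.029 (SD, n = 3 each), a difference of 0.021. These spots lie at the floor of the processed signal, since their mean background-subtracted signal per array was -1.66 to -1.03 and 0 to 2 of them per array were significantly above background. After subtraction of the 75th percentile these controls stood at -7.37 ± 0.18 and -6.11 ± 0.43, a difference of 1.26. The 75th percentile itself differed by -1.24 between the groups (ARDS minus normal). Its subtraction added that amount to each gene. It took Nlrp3 from 0.86 to 2.11 and Ptk2b from 1.77 to 3.02. Where the shift in array brightness came from was not tested.

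**Figure D2:**
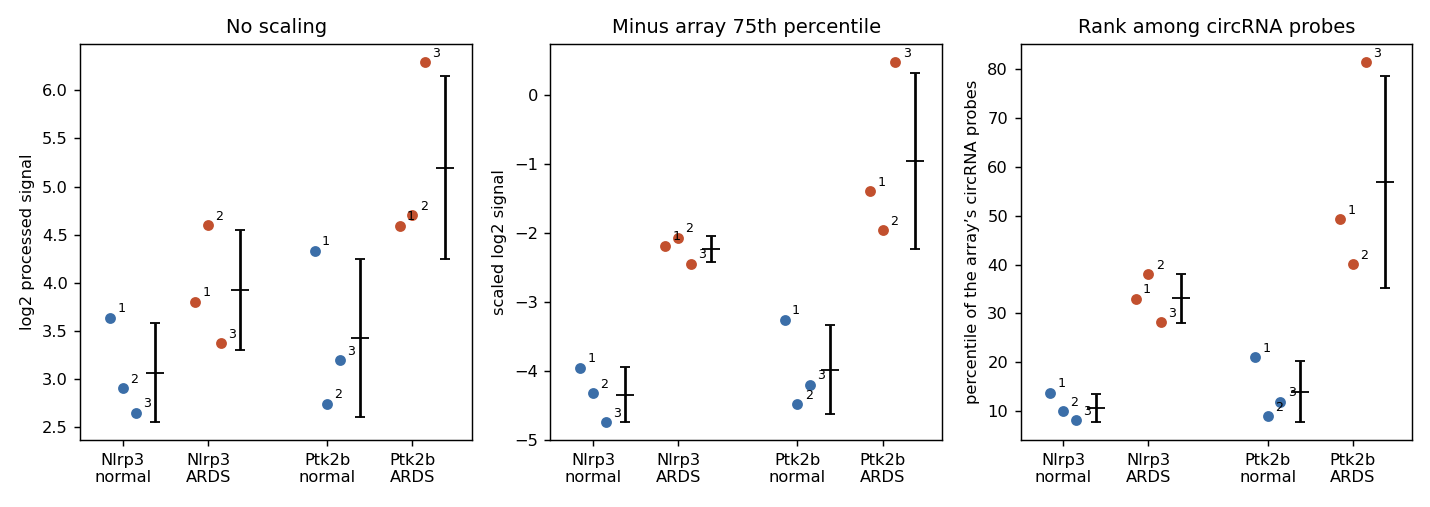
Array means of Nlrp3 and Ptk2b as log2 processed signal without scaling (left), minus the 75th percentile of the array's circRNA probes (middle) and as the percentile among the array's circRNA probes (right); numbered points are replicates and bars are the mean and SD (n = 3 per group). Nlrp3 overlaps between the groups in the left panel only, and Ptk2b in none.

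Ranks within an array, which do not change with its overall brightness where that acts on all probes alike, also differed between the groups. Nlrp3 was brighter than 13.8%, 10% and 8.2% of the circRNA probes in normal replicates 1 to 3 and brighter than 33%, 38.1% and 28.2% in ARDS replicates 1 to 3. Ptk2b was brighter than 21%, 8.96% and 12% in normal and than 49.3%, 40.1% and 81.5% in ARDS replicates 1 to 3. The ranks are set against the circRNA probes, whose own median difference without scaling was -1.19. Both genes ranked higher on each ARDS array than on any normal array. The share of all probes whose ranks separate the groups in this way was not counted, and nothing is read from it. The median of the other 49 linear probes tested also stood higher against the circRNAs in ARDS lung. Their median scaled difference was 0.54, against 0.05 over the circRNAs tested. Single linear probes went both ways, from -1.2 to 2.36. In ARDS replicate 3 Ptk2b was among the brighter features of the array, while Nlrp3 had its lowest rank of the 3 ARDS arrays there.

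The genes stood in different order on the ARDS arrays. In normal lung replicate 1 was highest for both, whereas ARDS replicate 3 was lowest for Nlrp3 and highest for Ptk2b. The log2 ratio of Ptk2b to Nlrp3 within an array does not change when a single value, such as the 75th percentile, is subtracted from the whole array. This ratio was 0.7, -0.16 and 0.55 in normal and 0.79, 0.11 and 2.92 in ARDS replicates 1 to 3. The groups overlapped, and only ARDS replicate 3 lay clearly outside the range of the normal arrays. The mean ratio differed by 0.91 between the groups, against an SD of 0.46 in normal and 1.47 in ARDS lung (n = 3 each). Over the 6 arrays the levels of the genes had a Pearson's r of 0.84 with scaling and 0.5 without it. Both genes were chosen for their difference between the groups, which by itself raises an r over both groups. On deviations of the scaled levels from the group means the r was -0.1. The scaled levels share each array's 75th percentile, and both probes read one RNA extract per array.

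ARDS replicate 3 decided much of the size for Ptk2b. This array was scanned apart from the other 5 (scan 2), and it had the lowest 75th percentile, 5.82. Without it the scaled difference of Ptk2b was 2.3, or 4.92-fold, against 8.1-fold with it, and the unscaled difference was 1.22, or 2.34-fold. That of Nlrp3 was 2.21 scaled and 1.14 unscaled without the same array. Leaving out each array in turn gave scaled differences between 1.9 and 2.3 for Nlrp3 and between 2.3 and 3.52 for Ptk2b. Without scaling the same gave 0.53, without ARDS replicate 2, to 1.15, without normal replicate 1, for Nlrp3 and 1.22 to 2.23 for Ptk2b.

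**Figure D3:**
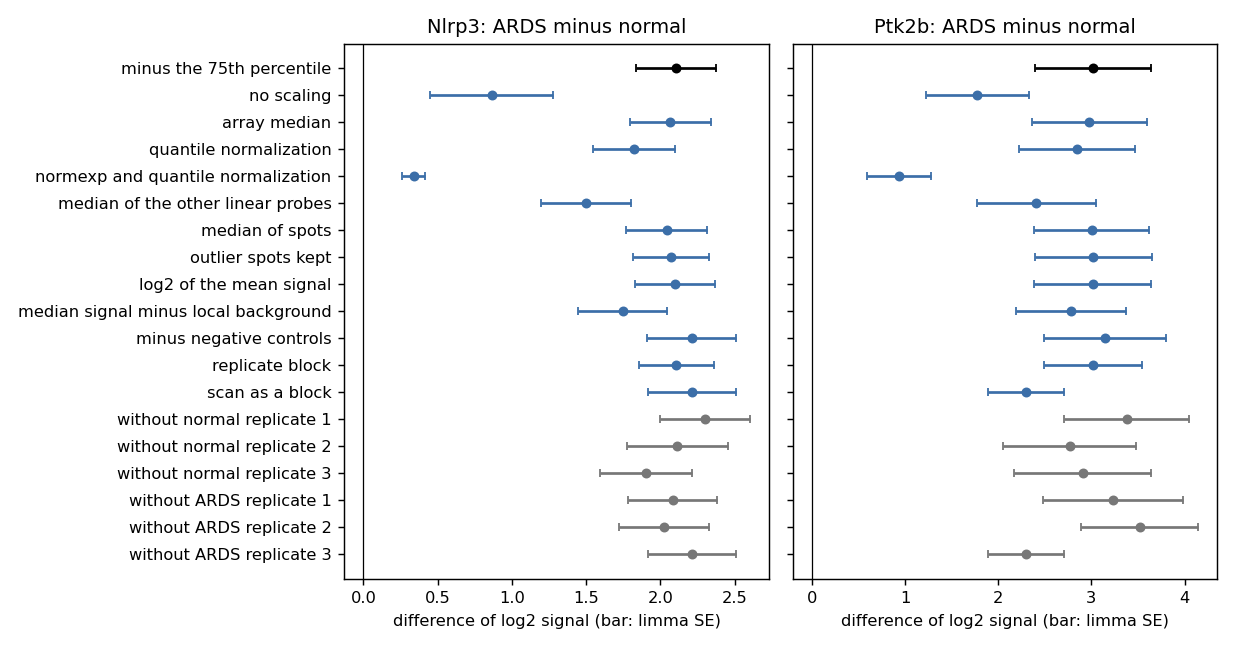
Difference in log2 signal between ARDS and normal lung for Nlrp3 (left) and Ptk2b (right) under each way of processing, with limma standard errors as bars; black is the 75th percentile scaling, blue are other settings and grey are fits without 1 array. All points lie above 0, from 0.34 to 2.3 for Nlrp3 and from 0.94 to 3.52 for Ptk2b.

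Against the other linear transcripts instead of the circRNAs, the differences were smaller. Relative to the median of the other linear probes of the same array, Nlrp3 stood 1.5 log2 units higher in ARDS lung (limma SE 0.3), or 2.83-fold, and Ptk2b 2.41 units higher (limma SE 0.64), or 5.31-fold. Of the other 49 linear probes tested, 1 had a larger difference than Nlrp3, at 2.36 after the 75th percentile scaling, and 0 had a larger one than Ptk2b. Among the 13245 circRNAs tested, 113 had a larger difference than Nlrp3 and 17 a larger one than Ptk2b on the scaled values. These places are descriptions, since the genes were picked for their differences.

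**Figure D4:**
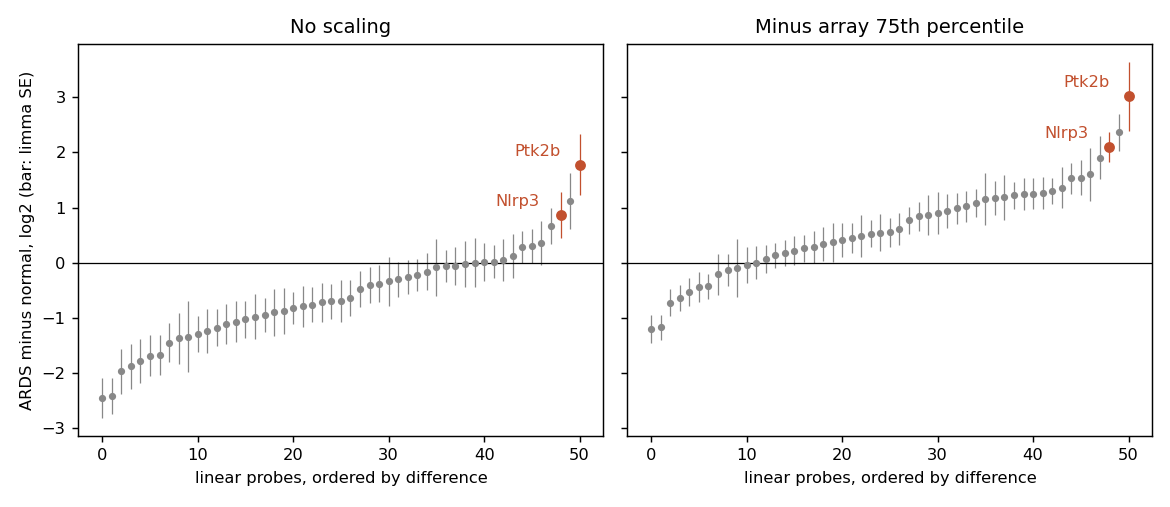
Difference between ARDS and normal lung of the 51 linear probes tested, ordered by size, without scaling (left) and after subtraction of the 75th percentile (right), in log2 units with limma standard errors as bars. Ptk2b is at the top of both panels, and the median of the other 49 probes (grey) moves from -0.7 to 0.54.

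The background of the other linear probes shows how much of the panel moved. With the 75th percentile scaling, 14 of the other 49 were higher in ARDS lung and 2 were lower (limma, adjusted by Benjamini-Hochberg over all probes tested), a share of 32.7%, and 19.8% of all 13296 probes passed in either direction. Without scaling 17 of the 49 passed (34.7%), 17 as lower and 0 as higher. The share of all probes that passed without scaling is not given here, so nothing is read from the 34.7%. The count of 16 became 0 when either normal replicate 2 or replicate 3 was left out, with 19 probes at an unadjusted limma p under 0.05 in each case. It was 1 without normal replicate 1, 3 without ARDS replicate 1 and 26 without ARDS replicate 2.

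The array offers little of the pathways to which the genes belong. Of 27 genes of the inflammasome and of interleukin-1 signalling, 2 had a matched linear probe, Nlrp3 and Hsp90ab1. Of 21 genes around PYK2 only Ptk2b had one (1 of 21), and of 18 genes of Toll-like receptor and NF-kB signalling none did (0 of 18). The other members, such as Pycard, Casp1 and Il1b, were not analysed here. Hsp90ab1, a chaperone that keeps NLRP3 competent for activation among many other clients, had scaled log2 levels of 3.43 in normal and 3.98 in ARDS lung. Its difference of 0.55 (SE 0.26) did not pass (limma adjusted p = 0.153), and without scaling it was -0.69 (SE 0.37, limma adjusted p = 0.14).

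The transcripts whose scaled levels were most like each gene over the 6 arrays were named by Pearson's r, as a description of arrays that fall into 2 groups and share a scaling. For Nlrp3 these were Rplp1, a ribosomal protein transcript (r = 0.94), Hprt1 of purine salvage (0.88) and Ppp2r2b, which encodes a regulatory subunit of a protein phosphatase (0.88), out of 29 named linear probes. Without scaling their r with Nlrp3 was 0.43, 0.74 and 0.62. For Ptk2b they were Cse1l, an export receptor for importin α (0.99), Sdha, a subunit of succinate dehydrogenase (0.97), and Ppp2r2b (0.91). Without scaling their r with Ptk2b was -0.17, 0.86 and 0.63, so that of these 3 Sdha stayed the most like it. Sdha shared with Ptk2b its highest level in ARDS replicate 3, at 1.28 against -0.08 and -0.75 in ARDS replicates 1 and 2 and -1.55 to -1.29 in normal lung. On deviations from the group means, Cse1l (0.97), Sdha (0.94) and Mex3c (0.86) were the most like Ptk2b and Med16 (0.74), P2rx2 (0.67) and Ndfip1 (0.52) the most like Nlrp3. Over the 6 arrays without scaling, Mex3c had an r of -0.52 with Ptk2b. Med16, P2rx2 and Ndfip1 had one of -0.16, -0.03 and -0.35 with Nlrp3. The scaled difference of Ndfip1 was -0.64, opposite to that of Nlrp3. The nearest circRNAs were ASCRPR000794 and ASCRPR008211 for Nlrp3 (r = 0.997 and 0.996) and ASCRPR000177 and ASCRPR003711 for Ptk2b (0.998 and 0.995), the highest among 13226 compared. Without scaling the r of these circRNAs was 0.95 and 0.49 with Nlrp3 and -0.08 and -0.15 with Ptk2b.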

How the data were processed

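The 6 arrays carry 1 colour each and their spots were quantified in Agilent Feature Extraction (version 11.0.1.1), as the submitters' processing notes state. The deposited processed signal is an intensity. Per the file headers it had its background subtracted and a spatial trend removed on each array, and arrays were not scaled to each other. The authors' deposited table of log2 values lists circRNA probes only and was not used (0 columns of other samples were present).

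Control spots, custom probes of unstated purpose and outlier spots (between 20 and 42 on an array) were dropped, and log2 signals were averaged per probe. Scaling subtracted the 75th percentile of the circRNA probes. Probes well above background on at least 3 arrays, in over 50% of their spots, and with at least 2 values per group were tested with limma 3.58.1 in R 4.3.3 (lmFit and eBayes, two-sided, Benjamini-Hochberg, threshold 0.05). The fit and its threshold were tried on simulated data with equal noise for all probes and no difference in array brightness. The scaling was not part of that simulation. The 2 genes and the gene lists were chosen with earlier results of these data known, and Nlrp3 and Ptk2b get no p-value. Of the 62 linear probes, 39 matched a symbol. Named genes were the 2 members, list genes with a probe, and, by Pearson's r, the 3 linear transcripts and 2 circRNAs most like each member. Alternatives were other scalings, background corrections, spot summaries, filters, blocks and each array left out. The number of arrays limits the precision.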

Additional observations from a re-analysis of the deposited data

How the results depend on the processing

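No setting turned the direction of Nlrp3 or Ptk2b. A difference is said to have moved if it changed by more than the gene's pooled SD between rats on the scaled values. That SD was 0.31 for Nlrp3 and 1.01 for Ptk2b, so the margin was wider for Ptk2b. The difference of Nlrp3, 2.11 as reported, moved with no scaling (0.86) and with the median of the other linear probes (1.5). It also moved with a normexp background correction and quantile normalization (0.34) and with the spot median minus its local background (1.75). That of Ptk2b, 3.02 as reported, so moved with no scaling (1.77) and with normexp (0.94). The normexp offset of 50 exceeds the signal of Nlrp3 on every array and by construction draws dim values together. Leaving out 1 array gave 1.9 to 2.3 for Nlrp3 and 2.3 to 3.52 for Ptk2b, and without scaling 0.53 to 1.15 for Nlrp3 and 1.22 to 2.23 for Ptk2b. The unscaled values of Nlrp3 were 1.15, 0.78 and 0.66 without normal replicates 1 to 3 and 0.92, 0.53 and 1.14 without ARDS replicates 1 to 3, and those of Ptk2b that moved were 1.43 and 1.66 without normal replicates 2 and 3 and 1.22 without ARDS replicate 3. The local background, the negative control subtraction and the unscaled fits without 1 array were added after the data had been seen. The count of other linear probes that passed, 16, was 6 with normexp and 10 with the median of the other linear probes. It was 0 to 26 when 1 array was left out. The direction of these probes did depend on the setting. As reported 14 were higher and 2 lower in ARDS lung. Against the median of the other linear probes 4 were higher and 6 lower, and without scaling 0 were higher and 17 lower. With the scan as a block the fit is that without ARDS replicate 3.

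The labels number the rats of both groups 1 to 3, but these are different animals. Same-numbered arrays had correlations of 0.59, -0.23 and 0.14 between their deviations from the group means, so the numbers were not taken as pairs. With the replicate number as a block the differences stayed at 2.11 and 3.02, and 19 other linear probes passed.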
